A study of Homo sapiens with 19 samples.

Results

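An alternative 5′ splice site (A5SS) event is an exon whose 3′ end can be cut at either of 2 splice donors before it is joined to the same downstream exon. All events of the 3 A5SS tables of the series were taken, with no choice by their values, and joined by exon coordinates. The tables held 2023 events for epithelial cells with and without AKAP8 knockdown, 1904 for the same comparison in mesenchymal cells and 2031 for the epithelial-mesenchymal transition (EMT), and 1649 events stood in all 3. This gave 2290 distinct events, out of 99672 distinct events of the 5 splicing types counted in the series. They lay in 1634 genes and used 1959 different pairs of donors. CTNND1 had the most events with 13, followed by the non-coding gene GAS5 with 10, and 431 genes had more than 1.

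The study depleted AKAP8, an RNA-binding nuclear protein, in an inducible cell model of EMT and sequenced poly(A) RNA. HMLE/Twist-ER cells are human mammary epithelial cells immortalized with TERT that carry the transcription factor Twist fused to an estrogen receptor domain. Epithelial (EPI) libraries came from untreated cells, and mesenchymal (MES) libraries from cells given 20 nM tamoxifen until they had taken on a mesenchymal shape, so that tamoxifen and Twist activation cannot be told apart. Every library came from cells that stably carried a lentiviral shRNA. It was non-specific in the 3 EPI control and 3 MES control libraries, and targeted AKAP8 in the 3 EPI knockdown and 2 MES knockdown libraries. The mesenchymal knockdown table held 2 of the 3 MES controls. The tables list the libraries of a group without replicate numbers, and replicates are numbered here by their place in that list. The methods call the replicates biological without saying whether they were separate cultures, so p-values measure the spread between these libraries, which may be technical. In bulk RNA, a shift in the mix of cells and a shift within each cell cannot be told apart.

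Depth was similar among the groups. Over the 1649 events found in all tables, a library held between 713489 and 991413 A5SS reads, and the median event of the EMT comparison had 142 reads per library. The target was lower in the knockdown libraries. Reads of the 2 skipped-exon events of AKAP8 were 11.7 ± 1.09 RPM (relative to the skipped-exon junction reads of the library) in EPI control and 5.04 ± 1.14 in EPI knockdown (SD, n = 3 and 3, two-sided exact permutation p = 0.1, the smallest that 3 against 3 allows). In MES they were 11.3 ± 4.26 and 4.30 ± 0.423 (n = 3 and 2, exact permutation p = 0.2). The groups did not overlap in either state. On the same scale the epithelial gene CDH1 was at 67.0 in EPI control and 3.25 in MES control, and the mesenchymal gene VIM at 1380 and 4333. Of 4 epithelial and 6 mesenchymal marker genes with reads, CDH1 alone separated the groups in EPI knockdown, at 91.7 ± 9.33 against 67.0 ± 8.11 (SD, n = 3 each). ESRP1 (3.88 against 8.70), ZEB1 (1.64 against 2.75) and VIM (5263 against 4333) separated them in MES knockdown. The part of these genes' levels in the results was not tested.

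A 5′ splice site is the start of an intron, nearly always the bases GT. It is first recognised by the U1 small nuclear ribonucleoprotein, whose RNA pairs with the last bases of the exon and the first bases of the intron, and later by U6. Where 2 donors compete, the upstream one gives the short exon and the downstream one the long exon, which keeps an extension that the short form removes with the intron. The share of transcripts that use the downstream donor is called PSI here (percent of the long form, from junction reads divided by the effective length of each form).

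The donors of the events on which the results turn are given on the transcribed strand, 5′ to 3′, from the GRCh37 genome. For distant donors each line holds 1 donor, with the last 3 exon bases and first 6 intron bases in capitals, the 9 bases that U1 reads. These were compared with the consensus, CAG at the exon end followed by GTAAGT.
SNHG8 upstream donor, chr4:119199940-119199957, plus strand: aggtgAAAGTACGTagtt
SNHG8 downstream donor, chr4:119200285-119200302, plus strand: gccagATGGTGAGTaata
STAT2 upstream donor, chr12:56743200-56743217, minus strand: agctgAAAGTGAGTgaaa
STAT2 downstream donor, chr12:56743119-56743136, minus strand: ctcttGGGGTGGGTtagc
SMARCB1 upstream donor, chr22:24134047-24134064, plus strand: gtcacATGGTAAAAaaac
SMARCB1 downstream donor, chr22:24134074-24134091, plus strand: cactaAGGGTGCGTcttc
CTNND1 upstream donor, chr11:57529511-57529528, plus strand: catttGAGGTGTGTggct
CTNND1 downstream donor, 73 nt away, chr11:57529584-57529601, plus strand: gtcttACGGTAACCggag
SNHG8 and SMARCB1 had equal matches at both donors, 6 of 9 bases in SNHG8 and 5 of 9 in SMARCB1. In STAT2 and CTNND1 the upstream donor matched 6 bases and the downstream one 5.

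Where the donors lay within 12 nt of each other, both fit on 1 line, and the capitals mark the first 2 intron bases of each donor.
SAFB2, 4 nt apart, chr19:5616133-5616148, minus strand: catgctGTagGTaact
RAP1B, 9 nt apart, chr12:69004818-69004838, plus strand: tgagagGTtcgcagaGTgagt
ANXA2, 4 nt apart, chr15:60644572-60644587, minus strand: agaaagGTggGCactg
In SAFB2 and ANXA2 the upstream donor has a G at the fifth intron base, which is the first base of the GT or GC of the downstream donor. Every pair 4 nt apart whose downstream donor starts with G has this by construction. The ANXA2 downstream donor starts with GC. Over the 1959 donor pairs GT stood at 96.5% of upstream and 96.8% of downstream donors, and GC at 3.22% and 2.81%.

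The distance between the donors had a median of 69.5 nt (quartiles 22 and 237, range 1 to 5174). The commonest single distance was 4 nt, with 84 events (3.67%), followed by 9 and 15 nt with 49 each (2.14%). The 3613 alternative 3′ splice site events of the same tables were closer, with a median of 41 nt, and 3 nt was their commonest distance with 676 events (18.7%). Only 21 A5SS events (0.917%) had donors 3 nt apart. Distances of up to 12 nt made up 16.3% of A5SS and 28.7% of 3′ splice site events, and multiples of 3 made up 43.2% and 52.7%.

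**Figure D1:**
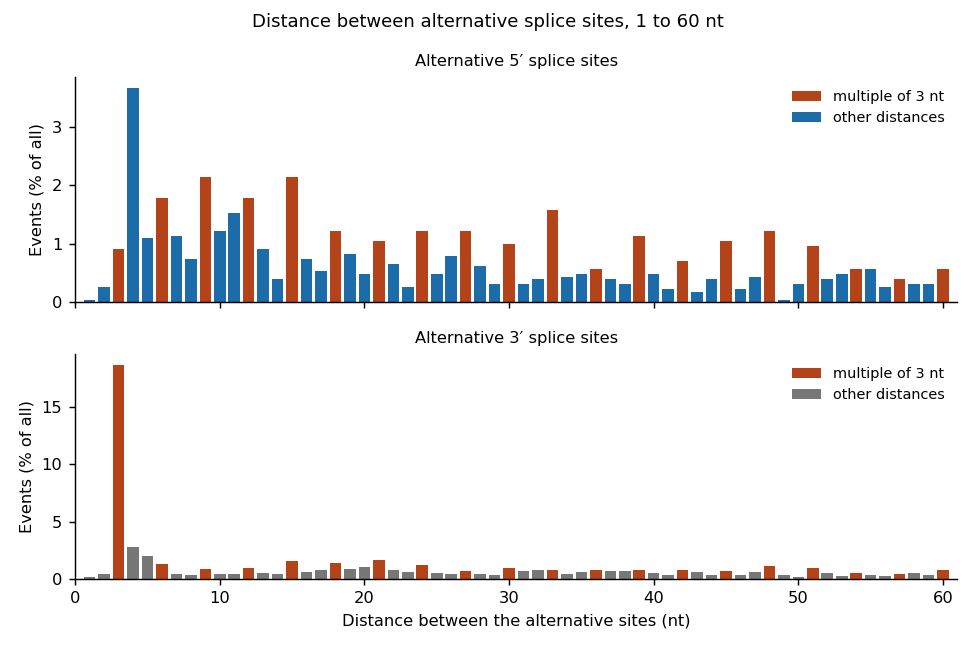
Share of events (% of all events of the type, y) at each distance between the alternative sites (nt, x, 1 to 60 nt), for 5′ sites above and 3′ sites below, with multiples of 3 in orange. The 5′ sites peak at 4 nt (3.67%) and the 3′ sites at 3 nt (18.7%), where the 5′ sites have 0.917%.

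The extension between the donors was coding in 1796 events (78.4%), of which 46.5% kept the reading frame. It lay in a 5′ UTR in 197 events (8.6%), where 36.5% of distances were a multiple of 3. Of the coding events, frame was kept by 47.7% with donors 1 to 12 nt apart, 58.0% at 13 to 50 nt, 46.0% at 51 to 150 nt and 37.7% beyond 150 nt.

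In most events the downstream donor was the main one. In the EPI control libraries the median PSI over 1631 events with enough reads was 83.7%, and 728 events (44.6%) were above 90%. It was higher at longer distances, with 40.6% at 1 to 12 nt, 71.6% at 13 to 50 nt, 86.0% at 51 to 150 nt and 96.7% beyond. Donors 4 nt apart stood lowest, with a median PSI of 18.3%, and 40.0% of those events were under 10%. The inclusion reads hold junction reads of the long form. They also hold reads that run from the exon across the upstream donor into the extension, so that unspliced RNA can add to PSI. Its part in these levels was not tested.

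PSI also followed the match of the donors to the consensus. Among 1250 events with a single acceptor, the median PSI was 40.6% where the downstream donor matched at least 3 bases fewer than the upstream one (n = 30), 55.3% at 1 or 2 fewer (n = 337), 66.6% at equal matches (n = 404), 92.2% at 1 or 2 more (n = 450) and 98.5% at 3 or more (n = 29). Across these events Spearman's rho was 0.18. The relation was closest for near donors: over all events of a distance class, rho was 0.45 at 1 to 12 nt, 0.28 at 13 to 50 nt, 0.14 at 51 to 150 nt and 0.076 beyond. Events are not independent replicates, and near donors share bases, so these values are a description.

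The most deeply read events of the distance classes used 1 donor almost alone. The 4-nt event of ANXA2, a calcium-dependent membrane-binding protein, had the GC donor in only 0.772% to 1.02% of its transcripts in the 11 libraries. RPL17 and RPS3A encode ribosomal proteins. PSI of the 53-nt RPL17 event was 0.193% ± 0.0222 in EPI control and 0.209% ± 0.0224 in MES control (SD, n = 3 each), and that of the 38-nt RPS3A event was above 99.9% in every library.

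EMT shifted more events than the knockdown did. In control cells 66 of 1631 events (4.05%) changed between EPI and MES. PSI was lower in MES in 46 of them (2.82% of events tested) and higher in 20 (1.23%). Where a donor pair has several acceptors, a change in PSI does not by itself show a change of donor. A call needed an adjusted p under 0.05 in a quasi-binomial F test with limma-moderated dispersion and Benjamini-Hochberg adjustment, and a difference of at least 10 points of PSI. The 66 events lay in 61 genes, and in 61 of the 66 the 3 EPI and 3 MES libraries did not overlap, against 18.7% of all events tested. The calls were made on these same libraries, so a higher share is built in. Of the 66, 49 (74.2%) had an EPI control PSI between 10 and 90%, which 36.1% of events tested had. Events outside that range have room for a change of 10 points in a single direction only, which favours calls within it. A distance that is a multiple of 3 was found in 38 (57.6%), against 45.3% of events tested, and the downstream donor had the better match in 23 (34.8%), against 37.9%.

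The size of the call depended on the libraries. Without MES control replicate 1 there were 32 calls, and without EPI control replicate 1 or MES control replicate 2 there were 38. limma on the log2 ratio of the forms, which treats libraries alike whatever their reads, called 10.

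NCOR1, a corepressor of nuclear receptors, had a 39-nt event that rose from 71.8% ± 4.92 to 97.4% ± 0.784 (SD, n = 3 each, +25.6 points, quasi-binomial F test, adjusted p = 1.36e-13, named after its values were seen).

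SMARCB1 and SMARCC2, which encode subunits of the SWI/SNF chromatin remodelling complex, were also named after their values were seen. SMARCB1, whose donors lie 27 nt apart, had PSI of 23.1, 23.9 and 23.4% in EPI control and 48.4, 48.7 and 45.1% in MES control. The EPI libraries differed among themselves by under 1 point, and the shift of +23.9 points (quasi-binomial F test, adjusted p = 2.47e-14) was toward the form that keeps 27 nt of coding sequence in frame. SMARCC2 had a 345-nt event that fell from 92.4% ± 4.89 to 69.9% ± 5.92 (SD, n = 3 each, adjusted p = 0.000273).

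Other large differences were in CWC25, TRMT10B and C18orf54. In CWC25, a spliceosome component, PSI of the 192-nt event was 70.5, 47.2 and 49.7% in EPI control and 21.1, 12.2 and 37.6% in MES control (−32.1 points, quasi-binomial F test, adjusted p = 2.04e-05). In TRMT10B, a tRNA methyltransferase, it was 48.5, 68.0 and 51.7% against 20.7, 13.6 and 21.2% (−37.6 points, adjusted p = 0.00279). Neither gene's groups overlapped, although single libraries spread widely. C18orf54 gained the long form, with 36.1, 58.7 and 55.8% in EPI and 98.0, 86.1 and 78.8% in MES (+37.4 points, adjusted p = 3.56e-06).

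Events of low depth or of overlapping genes were among the largest too. ZNF266, a zinc finger gene, had a difference of −49.0 points on an average of 21.7 reads per library (quasi-binomial F test, adjusted p = 0.00724). CCDC84 fell by 28.7 points on 57.0 reads (adjusted p = 0.00715). The event of RTEL1-TNFRSF6B, a readthrough of neighbouring genes whose reads cannot be assigned to one of them, fell by 28.6 points (adjusted p = 0.0295). The RTEL1-TNFRSF6B call was lost in 6 of 15 alternatives (adjusted p up to 0.177), that of CCDC84 in 4 of 15 (up to 0.279) and that of ZNF266 in 3 (up to 0.0964), each without MES control replicate 1 among others. In ATXN2L, an RNA-binding relative of ataxin 2, PSI was 85.8, 88.5 and 87.5% in EPI and 53.3, 62.6 and 64.2% in MES (−27.2 points, adjusted p = 2.05e-06). It has several acceptors. The difference was −8.33 points (adjusted p = 0.738) with the lowest inclusion count among them taken off in each library. Taking that count off also removes long-form reads.

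**Figure D2:**
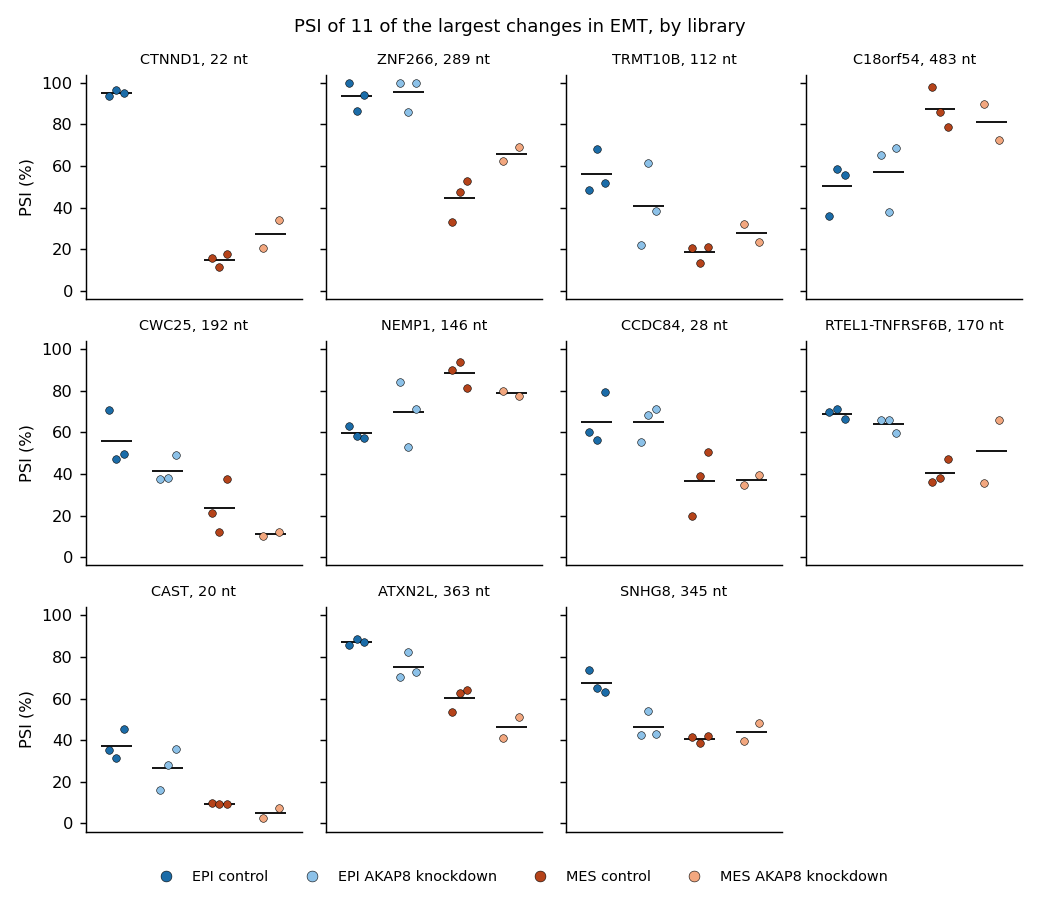
PSI (%, y) of 11 of the largest changes in EMT with 1 event per gene, 1 panel per event, 1 point per library and a line at each group's mean, in the control and AKAP8 knockdown groups of both states. In ATXN2L the MES controls stand between 53.3 and 64.2%, below the EPI controls at 85.8 to 88.5%, and in C18orf54 they stand at 78.8 to 98.0%, above 36.1 to 58.7%.

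Calls were made at each distance between donors. They numbered 5 of 250 events tested at 1 to 12 nt (2.0%), 14 of 423 at 13 to 50 nt (3.31%), 24 of 445 at 51 to 150 nt (5.39%) and 23 of 513 beyond (4.48%). The difference between these shares was not tested. At 51 to 150 nt 20 of the 24 had a lower PSI in MES.

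Some of the changes were between donors a few bases apart. Those described here were chosen after their values were seen. In RAP1B, a small GTPase that acts in cell adhesion, the shift over 9 nt went to the downstream donor, from 25, 30.7 and 29.6% to 43.4, 40.2 and 32.1% (+10.1 points, quasi-binomial F test, adjusted p = 0.00561). SAFB2, a nuclear scaffold protein, was the only call among 50 events tested with donors 4 nt apart, with 21.7, 10.8 and 19.3% in EPI and 1.9, 5.1 and 9.0% in MES (−11.9 points, adjusted p = 0.00279). The EPI and MES libraries of these 2 events did not overlap. Without MES control replicate 1 neither call was kept (+7.71 points, adjusted p = 0.268 in RAP1B, and −10.2 points, adjusted p = 0.135 in SAFB2), nor without EPI control replicate 1 (adjusted p = 0.180 and 0.109) or with limma on the log2 ratio of the forms (0.372 and 0.190), and RAP1B was also lost without MES control replicate 2 (0.0658). CNBP, a nucleic acid-binding protein with an average of 1891 reads per library, moved over 21 nt from 60.7% ± 2.34 to 47.0% ± 5.58 (SD, n = 3 each, adjusted p = 1.99e-09).

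The knockdown libraries gave a second measure of EMT, in which 3 EPI knockdown libraries were compared with 2 MES knockdown libraries that share none with the first. Of the 66 events, 63 could be tested there, and 62 had a difference of the same sign (98.4%, against 61.9% of the 1389 events tested in both). In 44 with the same sign the groups did not overlap in knockdown cells, which 27.9% of all 1432 events tested did. The median absolute difference was 18.8 points in the control cells that had chosen the events and 13.8 points in knockdown cells. Over the 63 events the differences had Pearson's r of 0.90 and Spearman's rho of 0.84, as a description. ST3GAL4, a sialyltransferase with donors 12 nt apart, was the exception, with +12.7 points in control and −1.01 points in knockdown cells.

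In knockdown cells 30 events passed (2.09%), 8 with a higher and 22 with a lower PSI in MES, and without EPI knockdown replicate 1 there were 50. Without MES knockdown replicate 1 there were 15, in a fit with a single MES library that is assumed to vary like the EPI ones. Both sets held 22 events, which were 33.3% of the 66 and 73.3% of the 30. CWC25 was again lower (−30.2 points, quasi-binomial F test, adjusted p = 0.000758). SMARCB1 was again higher, with 28.9, 17.5 and 21.4% in EPI knockdown and 50.7 and 49.9% in MES knockdown (+27.7 points, adjusted p = 2.34e-06), and NCOR1 rose by 17.7 points (adjusted p = 0.000768). Among the near donors CNBP fell by 13.6 points (adjusted p = 0.00200), while RAP1B (+6.02) and SAFB2 (−5.60) had the same sign without passing.

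**Figure D3:**
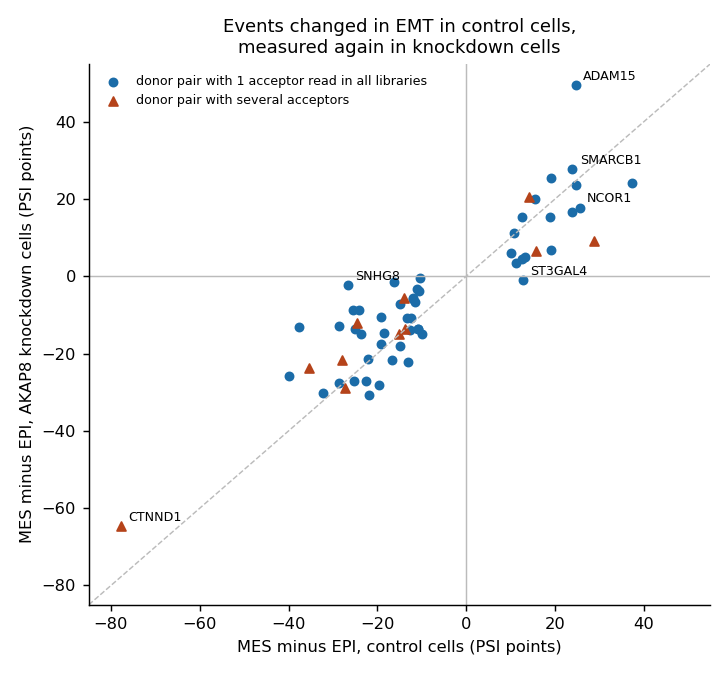
Difference in PSI between MES and EPI (points) in control cells (x) and in AKAP8 knockdown cells (y), 1 point per event, for the 63 events that changed in control cells and were tested in both. Triangles mark donor pairs with several acceptors, and the dashed line marks equal differences. All but 1 point have the same sign on both axes, and the median absolute difference is 13.8 points on the y axis against 18.8 points on the x axis, which chose them.

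The catenin gene CTNND1, which encodes p120-catenin of the cadherin junction, had the largest differences in EMT. A 5′ UTR exon has 3 donors, the second 22 nt and the third 73 nt after the first, and each is joined to several downstream exons. For the 73-nt pair and the first acceptor, PSI was 95.7, 97.7 and 96.5% in EPI control and 17.6, 14.6 and 24.6% in MES control (−77.7 points, quasi-binomial F test, adjusted p = 1.08e-39). For the 22-nt pair and the same acceptor it was 93.7, 96.6 and 95.1% against 15.8, 11.5 and 17.9% (−80.1 points, adjusted p = 3.21e-32).

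The reads behind these values show which form moved. Reads of the short form to the first acceptor went from 3 to 5 per EPI library up to 167 to 290 per MES library. Short-form reads to the third acceptor went from 479 to 563 down to 146 to 175, and those to the fourth from 151 to 188 down to 27 to 73. Inclusion reads of the 73-nt pair were nearly the same at the first and second acceptors in EPI, 141 to 222 and 142 to 228, and 159 to 248 at the fourth. They were higher at the third, 291 to 402. In MES they were 77 to 107 at the first acceptor and 93 to 121 at the third.

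**Figure D4:**
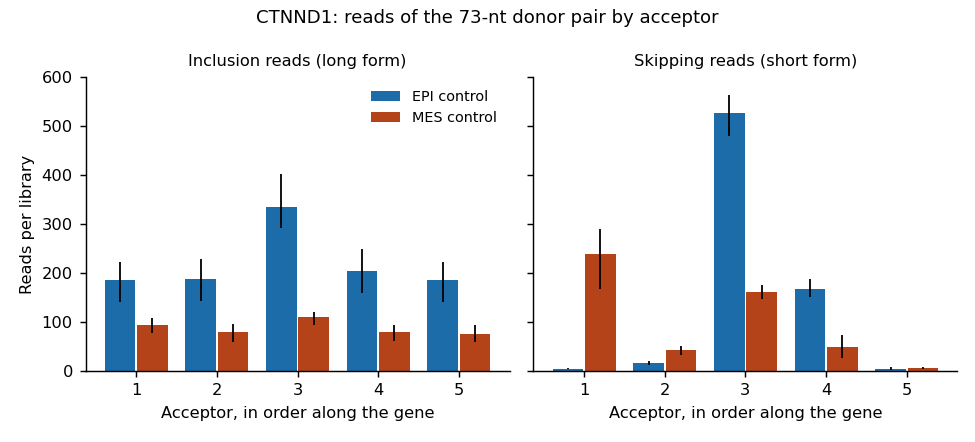
Reads per library (y) of the 73-nt donor pair of CTNND1 at each acceptor in order along the gene (x), for the inclusion and the skipping form in EPI control and MES control, with bars at the mean and lines from the lowest to the highest library. Skipping reads change from 3 to 5 up to 167 to 290 at the first acceptor and from 479 to 563 down to 146 to 175 at the third, while inclusion reads of EPI controls are 141 to 222 at the first and 291 to 402 at the third.

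Reads that run across the upstream donor are common to all acceptors of a donor pair and say nothing about a single one. They are not counted apart, so the lowest inclusion count among a pair's acceptors in each library was taken as common. It also holds long-form junction reads, and taking it off leaves the acceptor with the fewest inclusion reads with none. A call lost this way therefore does not show that the choice between donors stayed the same. Over 123 pairs with several acceptors in the EMT comparison, the highest inclusion count among the acceptors was 1.97 times the lowest at the median, and the highest skipping count 11.8 times the lowest. When the common inclusion reads were taken off, the differences of the first CTNND1 acceptor became +5.82 points for the 73-nt pair and +0.667 for the 22-nt pair. For the second acceptor the 73-nt pair went from −35.4 to −11.5 points and the 22-nt pair from −33.5 to +0.980. In CTNND1 reads of the upstream donor were divided otherwise among the acceptors in MES, and a change of the choice between donors was not shown at the first acceptor. In CAST, the calpain inhibitor calpastatin, the called event had 20 to 27 inclusion reads in EPI and 11 to 19 in MES at the first acceptor, and skipping reads went from 25 to 49 up to 90 to 148. With the common reads taken off, the CAST difference became 0, because this acceptor had the fewest inclusion reads.

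Of the 66 calls, 13 were in donor pairs with several acceptors, and 3 of them (CNBP, DCUN1D4 and TRAPPC6B) were still called with the common reads taken off. These 3 moved by −14.9, −19.2 and +11.3 points. In the others, the loss of the call cannot be told apart from the removal of long-form reads by this setting. Of the 53 calls in pairs with 1 acceptor, whose reads this setting leaves as they are, 51 were still called. The 53 were 4.1% of the 1294 such events tested, against 3.86% of the 337 with several. Of the 52 that were tested in knockdown cells, 51 had the same sign there.

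AKAP8 knockdown in EPI cells changed 1 event of 1613 (0.062%), in SNHG8, a non-coding host gene of a small nucleolar RNA. The long exon is at chr4:119199864-119200292, and its donors lie 345 nt apart. PSI was 73.8, 65.1 and 63.2% in EPI control and 42.5, 53.9 and 42.8% in EPI knockdown. All 3 knockdown libraries were below all 3 controls, a difference of −21.0 points from 67.4% ± 5.63 to 46.4% ± 6.54 (SD, n = 3 each, quasi-binomial F test, adjusted p = 1.37e-05, and two-sided exact permutation p = 0.1).

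Both forms of SNHG8 moved. Inclusion reads were 953 to 1402 in the control and 578 to 813 in the knockdown libraries, and skipping reads 249 to 303 and 347 to 407. The call was kept without each of the 6 libraries (−17.8 to −24.8 points) and with common inclusion reads taken off (−18.5 points, adjusted p = 0.00752). It was lost with the dispersion trend taken on all reads (adjusted p = 0.549) and with limma on the log2 ratio of the forms (adjusted p = 0.799).

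The same event fell in EMT. PSI in the MES controls was 41.3, 38.6 and 42.1%, below every EPI control (−26.7 points, adjusted p = 4.44e-20), and the MES knockdown libraries stood at 39.8 and 48.5%. The EPI knockdown libraries, at 42.5 to 53.9%, were thus lower than every EPI control and higher than every MES control. In knockdown cells the EMT difference was −2.27 points (adjusted p = 0.757), and in MES the knockdown difference was +4.17 (adjusted p = 0.888), with overlapping groups in both. The difference of the knockdown effect between the states was 24.4 points (adjusted p = 0.000737 for the interaction term over all 11 libraries), and it was the one event of 1421 (0.0704%) to pass. The EPI controls enter all of these comparisons except those within MES and within knockdown cells, so they are not independent of each other.

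In EPI, 26 events (1.61%) had an unadjusted p under 0.05 with a difference of at least 10 points, and 136 (8.43%) had groups that did not overlap. Among events with a difference of at least 10 points that did not pass the adjustment, the smallest p-values were in TTC8, ATXN2L, ZNF384, REPS1 and GGCX. TTC8, a subunit of the BBSome of primary cilia, had 25.5, 28.6 and 40.8% in control and 59.5, 41.9 and 52.3% in knockdown (+19.6 points, adjusted p = 0.733). ZNF384, a zinc finger transcription factor, had 57.3, 54.8 and 48.8% against 34.9, 28.6 and 21.7% (−25.2 points, adjusted p = 0.733). REPS1, an endocytosis protein, had 60.5, 53.3 and 54.9% against 43.5, 39.8 and 40.1% (−15.1 points, adjusted p = 0.733). The groups of these 3 events did not overlap, and none passed. GGCX, the vitamin K-dependent carboxylase, differed by +10.1 points (adjusted p = 0.769).

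In MES cells 1 event of 1553 (0.0644%) passed both criteria, an 81-nt coding extension of STAT2, a transcription factor of interferon signalling. PSI was 26.0 and 17.3% in the 2 controls of that table and 6.2 and 4.6% in the knockdown libraries (−16.3 points, quasi-binomial F test, adjusted p = 0.0301, and exact permutation p = 0.33, the smallest that 2 against 2 allows). The third MES control, at 12.5%, stood between them. With it the difference was −13.3 points (adjusted p = 0.280), and with common inclusion reads taken off the difference was −1.10 (adjusted p = 0.930). Leaving out 1 of the 4 libraries sets 1 library against 2, whose spread it is then assumed to share, and gave −12.0 to −20.7 points (adjusted p from 0.128 to 0.940). In EPI, PSI was 10.5% in control and 7.49% in knockdown, and did not pass.

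A second event had an adjusted p under 0.05 in MES at a difference under 10 points, and is named for that. It is a 66-nt event in the 5′ UTR of RPS15A, a ribosomal protein gene, with PSI of 21.2 and 19.9% in the MES controls of that table, 18.9% in the third, and 13.1 and 13.2% in the knockdown libraries. The knockdown libraries were below all MES controls (−7.42 points, quasi-binomial F test, adjusted p = 9.66e-07), with an adjusted p under 0.05 in 11 of 14 alternatives (8.04e-12 to 0.918). In EPI the difference was −1.87 points (adjusted p = 0.870).

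Beside these, 35 events (2.25%) had an unadjusted p under 0.05 with at least 10 points, and 474 (30.5%) had groups that did not overlap, with 2 libraries on each side. Among events of at least 10 points that did not pass, REPS1 again had one of the smallest p-values. Its PSI was 46.5 and 54.8% in control and 32.4 and 31.2% in knockdown (−18.9 points, quasi-binomial F test, adjusted p = 0.280). The third MES control stood at 44.5%. So REPS1, whose donors lie 3576 nt apart, was lower in all 5 knockdown than in all 6 control libraries, and its difference passed in neither state. ARHGEF40, a guanine nucleotide exchange factor, differed by −27.9 points (adjusted p = 0.0940), CTNND1 at the 73-nt pair and first acceptor by +14.8 (adjusted p = 0.0866), NAA60, an N-terminal acetyltransferase, by −22.3 (adjusted p = 0.524) and ACAA1, a peroxisomal thiolase, by +11.1 (adjusted p = 0.174).

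Over all events the median absolute difference was 1.35 points in EPI knockdown, 1.86 in MES knockdown and 2.0 in EMT. The median SD within a group was 2.02 and 2.28 points, 1.66 and 1.63 points, and 1.97 and 2.29 points in these comparisons. In the test of the knockdown effect between states, 25 events (1.76%) had an unadjusted p under 0.05 and a difference of at least 10 points, and SNHG8 passed alone.

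**Figure D5:**
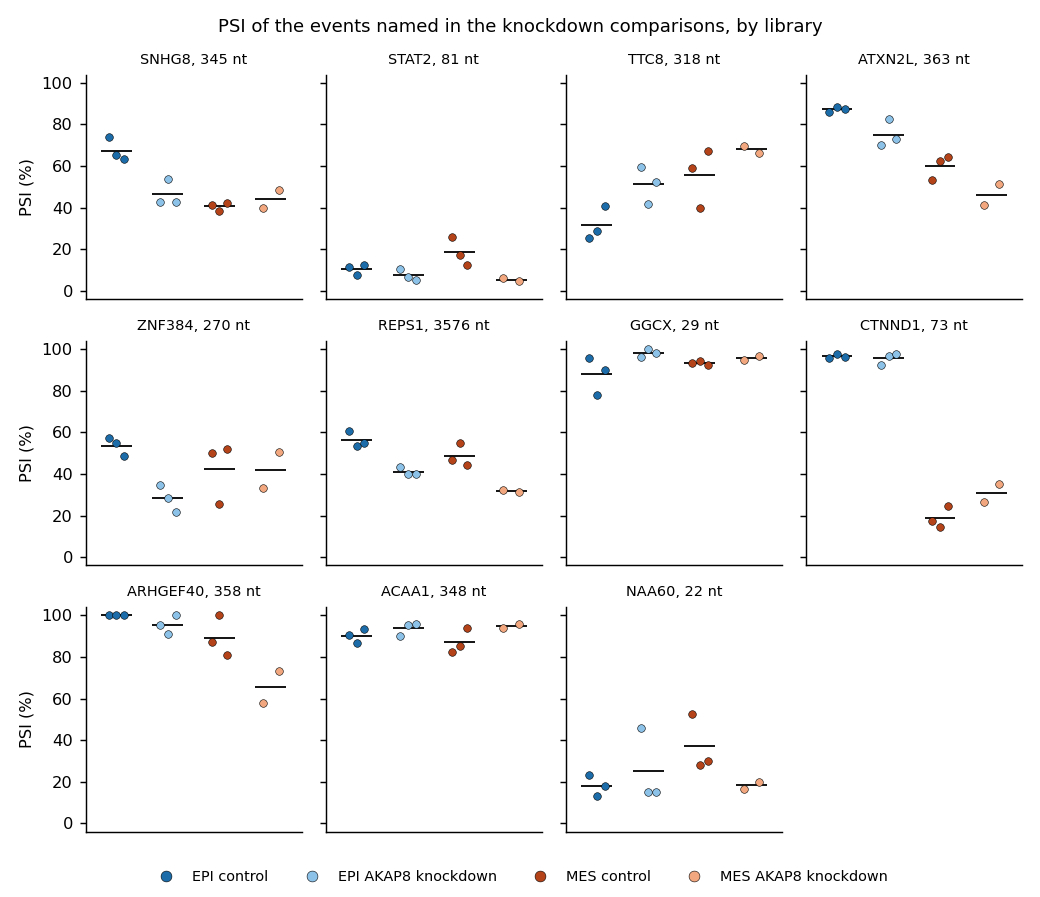
PSI (%, y) of the events called in the knockdown comparisons, and of those with the smallest p-values among events of at least 10 points that did not pass. There is 1 panel per event, with 1 point per library in the 4 groups and a line at each mean. In SNHG8 the EPI controls stand at 63.2 to 73.8% and all other libraries at 38.6 to 53.9%, and in REPS1 the knockdown libraries of both states stand at 31.2 to 43.5%, below every control.

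The lists of genes were small among these events. Of 23 genes of the U1 particle and 5′ splice site recognition, 5 had an event, and none of their 5 events was called in any comparison, at 4.05% of all events in EMT and 2.09% in EMT of knockdown cells. So few events say nothing about the list. Their median absolute difference in EMT was 0.0886 points against 2.0 over all events. Of 70 splicing regulators, 18 genes had 24 events, with 19 tested in EMT and none called in any comparison, at the same shares of all events, and a median absolute difference of 0.869 points. The most deeply read was a 39-nt coding extension of HNRNPC, an hnRNP protein that binds nascent RNA, with PSI of 17.5, 17.8 and 17.9% in EPI control and 26.5, 27.2 and 23.3% in MES control. The groups did not overlap and the adjusted p was 1.71e-13 in the quasi-binomial F test, at a difference of 7.87 points that lies under the 10 points a call needed. In the EPI knockdown libraries it was 26.1, 14.9 and 22.5%, around the controls.

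Of 45 genes of junctions, adhesion and matrix, 5 had 21 events, and 4 of the 18 tested in EMT fell (22.2%, against 4.05% of all events), all of them events of CTNND1 that share donors. None of the 4 was called with common inclusion reads taken off, and 3 then had the opposite sign. In knockdown cells 4 of 16 passed (25%, against 2.09%), 2 higher and 2 lower, again in CTNND1. FN1, the fibronectin gene and the most deeply read of that list, had the downstream donor in over 99.9% of transcripts in each of the 4 MES libraries that hold it. Of 49 genes of actin, myosin and microtubules, 7 had 8 events, and none was called in any comparison, against 4.05% of all events in EMT.

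AKAP8 binding was mapped in both states by eCLIP, which sequences RNA crosslinked to the immunoprecipitated protein, with peaks merged by the authors over replicates. In EPI, 75 events (3.28%) in 59 genes had a peak on their strand within 500 nt of a donor, and in MES 32 events (1.4%) in 29 genes. All merged peaks were used without a cutoff, and some fall short of the study's cutoff for high-confidence peaks. The number of peaks in each state is not given here, so these shares do not compare binding between the states. None of the 60 tested EPI events with a peak was called in the EPI knockdown, and 2 (3.33%) had an unadjusted p under 0.05 with at least 10 points, against 1.61% of all events. With a peak within 100 nt these were 2 of 23 (8.7%), and none was called. The median absolute knockdown difference was 1.58 points within 500 nt and 3.28 within 100 nt, against 1.35 over all events. MES went the other way. With a MES peak, 0 of 22 tested events within 500 nt and 0 of 9 within 100 nt had such a p and difference in the MES knockdown, against 2.25% of all events. Their median absolute difference was 1.54 and 1.56 points, against 1.86 over all events. These differences between sets were not tested. In EMT 1 of 58 events with an EPI peak within 500 nt was called (1.72%, against 4.05% of all events). It was ATXN2L, whose call was lost with common inclusion reads taken off, and whose peak at chr16:28847530-28847619 lies in the extension, with a log2 ratio of immunoprecipitate to input of 3.85. Its PSI in EPI knockdown was 70.2, 82.4 and 72.9%, below all EPI controls, and the difference of −12.1 points did not pass (adjusted p = 0.733). In MES knockdown it was −11.7 points (adjusted p = 0.888). RPS15A had an EPI peak 246 nt from a donor, with a log2 ratio of 2.93 and a −log10 p of 1.83. That is short of the study's cutoff for high-confidence peaks. The RPS15A difference was in MES, and in EPI it was −1.87 points (quasi-binomial F test, adjusted p = 0.870). The highest ratio near an EPI event, 5.65 on the log2 scale, was in BCAR1, an adaptor protein of focal adhesions. Its event differed by 0 points in the EPI knockdown and by −0.139 points in EMT. The PSI level of the BCAR1 event is not given here, so these values do not show whether it could respond.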

How the data were processed

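Per the study's methods, the authors aligned reads with STAR to GRCh37, kept unique alignments and counted junction reads per event with rMATS and Gencode. The deposited A5SS tables hold these raw reads, with the libraries of a group joined by commas. The authors' p-values and PSI were not used, nor was their DESeq2 gene table, which holds results of their comparisons. The deposited eCLIP peak lists give −log10 p and log2 of immunoprecipitate over input, as the authors merged them.

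PSI was computed from inclusion and skipping reads divided by their effective lengths. Inclusion reads include those crossing the upstream donor. Events needed an average of 20 reads per library, which left out 410, 351 and 400 events in the EPI knockdown, MES knockdown and EMT comparisons. Groups were compared with a quasi-binomial likelihood-ratio F test in R 4.3.3, with the dispersion moderated by limma 3.58.1 (robust trend on reads of the rarer form, floor of 1, events under 10 such reads taking the trend) and Benjamini-Hochberg adjustment over the A5SS events of a comparison. The test was checked on simulated reads first. A single event's exact permutation test was two-sided. The state comparison of knockdown effects used all 11 libraries and each state's difference.

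Named events were those called in a knockdown or state comparison, the 12 largest called in EMT with separate groups (1 per gene), the 5 smallest p-values of at least 10 points that did not pass in each knockdown comparison, called members and the deepest event of each list, and the deepest event of each distance class. Others are said to have been chosen after their values were seen. The events and lists were chosen with earlier results of these data known. Extensions were annotated with Gencode 44 mapped to GRCh37, a later release than the authors', and donors were read from GRCh37. EPI and MES control reads were identical in the tables that share them. Junction reads are not independent molecules. Results of some genes are not reported here.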

Additional observations from a re-analysis of the deposited data

Results flagged for a closer look

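The knockdown difference of SNHG8 differed between the states by 24.4 points of PSI in the interaction test over 11 libraries (quasi-binomial F test, adjusted p = 0.000737). PSI fell by 21.0 points in EPI and was 3.45 points higher in MES when all 3 MES controls were used. The difference was between 20.1 and 28.8 points without each library in turn and the call was kept each time. It was lost with the dispersion trend taken on all reads (adjusted p = 0.850) and with limma on the log2 ratio of the forms (adjusted p = 0.989).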

How the results depend on the processing

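The number of calls depended on the test and on single libraries. limma on the log2 ratio of the forms called 0 events in EPI knockdown, 0 in MES knockdown, 10 in EMT, 2 in EMT of knockdown cells and 0 between states. A dispersion trend on all reads called 0, 2 and 0 in the EPI, MES and state comparisons. In MES knockdown there were 2 calls at 5 points, 0 with a trend that was not robust, 0 with the third MES control and 0 with the common inclusion reads taken off, a setting added after seeing the data that gave 57 of 1506 in EMT and 18 in EMT of knockdown cells. Leaving out 1 library at a time, which in MES knockdown leaves an arm of 1, gave 1 to 3 calls in EPI knockdown (3 without EPI knockdown replicate 1), 0 in MES knockdown each time, 32 to 71 in EMT, 15 to 50 in EMT of knockdown cells and 1 to 2 between states (2 without EPI knockdown replicate 1). With common reads taken off, 4 CTNND1 differences changed sign, to 0.667, 0.980 and 5.82 points in EMT and −1.49 points in EMT of knockdown cells. Over the named events, leaving out 1 library at a time lost the call in 57 fits and left the result the same in 183, with no change of direction. An event counts once for each library left out, so 57 is not a number of different calls. Each donor pair counted once, the median distance was 77 nt. Within 100 nt, 29 EPI and 11 MES events had a peak, and within 1000 nt 50 MES events. The cause of these changes was not tested. No paired analysis was possible because the tables do not say which library has which replicate number. With 2 or 3 libraries in a group, differences of well over 10 points may have been missed, not only those of a few points. ZNF384 differed by −28.5 to −21.9 points in EPI knockdown over 16 settings, the main one included, and passed in 0 of them. The smallest detectable difference was not measured, so few calls do not mean that larger changes were absent.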
